A study of Mus musculus with 6 samples.

Results

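Imprinted genes are transcribed mainly from 1 of the 2 parental copies, and 45 of them were followed here in mouse epiblast stem cells (EpiSCs) with and without Dicer. The 45 were picked by name from the well-known imprinted genes of the mouse, and each was represented by the probe set that names that gene alone, or by the brightest such probe set on average where there were several. In this way 39 of the 45 were measured, among 20193 genes on the array. By the copy from which they are known to be expressed, for some of them only in certain tissues, 16 of the 39 are paternal, 20 maternal and 3 differ between isoforms. Which copy was read in these cells was not measured. The other 6 (Mest, Mirg, Rian, Rtl1, Snrpn and Usp29) were not measured by this rule: 5 were named on the array together with other genes, and Rian was not named.

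EpiSCs are pluripotent cells in the primed state of the epiblast after implantation, and the medium held 20 ng/ml Activin with bFGF at 12 ng/ml. Dicer is the ribonuclease that releases mature microRNAs from their precursors. Controls carried floxed Dicer alleles (Dicer fx/fx), and deleted samples (Dicer -/-) came from the same cells after 0.3 µM 4-OH-tamoxifen for 3 days and 2 days without it, with RNA taken on day 5. Controls had no tamoxifen, so the drug, the activated recombinase and the deletion cannot be told apart, and no source used here gives the type of Cre. Experiments 18, 19 and 20 each gave 1 control and 1 deleted sample, which makes 6 Affymetrix mouse gene arrays, 3 in each group. The array files are numbered with the 3 controls first, so file number went with deletion. The numbers do not say whether the arrays were run in that order.

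Imprinting is set by DNA methylation that differs between egg and sperm and is kept through the divisions of the embryo by factors such as ZFP57, TRIM28 and DNMT1. Most imprinted genes lie in clusters governed by a shared control region, so that neighbours of one cluster may be read from opposite parental copies. Many of them act on fetal and placental growth, with growth promoters often paternal and growth limiters often maternal. An array reads the sum of both copies, so these values hold levels and not the choice of allele.

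Values are array intensities on a linear scale or log2 differences of deleted minus control. The ± gives the SE of a limma fit with group as its only term and 3 arrays in each group. Samples are paired by experiment, so this SE also holds the spread between experiments and is not that of the paired differences. With the experiment as a block it was 0.11 in place of 0.72 for Asb4 and 0.07 in place of 0.36 for Zrsr1. For Phlda2 it was 0.10 in both fits. Adjusted p-values are Benjamini-Hochberg values over all 20193 genes, with a threshold of 0.05. Dicer1 itself was at 1836, 2079 and 2098 in the controls of experiments 18, 19 and 20 and at 601.6, 553.1 and 645.4 in the deleted samples. It fell by 1.74 ± 0.09 on the log2 scale (adjusted p = 0.0452), which left 29.9% of the control intensity, in all 3 experiments. With the experiment as a block its adjusted p was 0.0666, and it also missed the threshold when any 1 array was left out. The 10 EpiSC markers had mean log2 levels from 9.62 (Fgf4) to 12.82 (Zic2), all above the median of 8.29 over all genes. Their summed intensity was 35160, 40720 and 41990 in the controls of experiments 18, 19 and 20 and 39660, 42290 and 33400 in the deleted samples. It thus rose with deletion in experiments 18 and 19 and fell in experiment 20. Fgf4 was lower in all 3 experiments (mean -0.66, adjusted p = 0.931), Sox2 was higher in all 3 (mean 0.15) and 8 went both ways. Among these 8, Nanog went from 4518 to 1915 in experiment 20. The median intensity of an array lay between 247.7 and 260.1. The number of arrays limits the precision.

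Promoters are shown for 4 of the 8 imprinted genes with the largest one-direction differences, 2 on each side. Every CG dinucleotide is in capitals, because DNA methylation is carried at CG dinucleotides. Whether any of them is methylated was not measured. The windows are gene starts and were not chosen as the control regions of imprints. Phlda2 and Ascl2 were lower and Ndn and Asb4 higher in the deleted sample of every experiment. Each window runs 5′ to 3′ on the gene's own strand from 250 bases before to 50 bases after the RefSeq start, on build GRCm38.p6. They lie at chr7:143502475-143502774 (Phlda2, minus strand), chr7:142969215-142969514 (Ascl2, minus strand), chr7:62348027-62348326 (Ndn, plus strand) and chr6:5383136-5383435 (Asb4, plus strand).
Phlda2: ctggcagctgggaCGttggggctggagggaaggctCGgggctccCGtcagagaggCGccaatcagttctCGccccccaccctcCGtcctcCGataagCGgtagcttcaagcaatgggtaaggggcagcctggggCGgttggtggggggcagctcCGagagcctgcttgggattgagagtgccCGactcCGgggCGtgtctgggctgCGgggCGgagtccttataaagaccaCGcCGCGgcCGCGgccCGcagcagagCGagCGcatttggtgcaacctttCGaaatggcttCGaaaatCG
Ascl2: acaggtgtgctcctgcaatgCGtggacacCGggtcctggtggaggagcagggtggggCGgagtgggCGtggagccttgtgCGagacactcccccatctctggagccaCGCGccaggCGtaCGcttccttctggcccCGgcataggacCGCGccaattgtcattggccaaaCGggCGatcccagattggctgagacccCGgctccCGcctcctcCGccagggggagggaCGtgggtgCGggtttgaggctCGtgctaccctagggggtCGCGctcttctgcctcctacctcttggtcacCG
Ndn: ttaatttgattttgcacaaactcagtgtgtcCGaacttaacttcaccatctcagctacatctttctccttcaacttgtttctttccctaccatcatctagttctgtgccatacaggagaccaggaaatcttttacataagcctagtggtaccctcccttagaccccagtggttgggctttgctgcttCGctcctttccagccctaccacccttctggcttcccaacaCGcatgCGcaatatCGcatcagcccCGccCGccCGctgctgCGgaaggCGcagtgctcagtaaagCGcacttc
Asb4: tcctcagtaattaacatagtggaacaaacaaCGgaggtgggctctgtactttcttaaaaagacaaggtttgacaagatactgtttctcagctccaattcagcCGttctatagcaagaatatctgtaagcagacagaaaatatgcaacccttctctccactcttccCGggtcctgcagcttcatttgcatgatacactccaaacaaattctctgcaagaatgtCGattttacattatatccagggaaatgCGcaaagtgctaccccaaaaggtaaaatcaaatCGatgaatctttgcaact

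The Phlda2 window held 26 CG dinucleotides, and 16.9% of all 32851 RefSeq windows of this length held as many or more. The Ascl2 window held 23, a number reached by 21.5% of windows. The Ndn window held 11 and the Asb4 window 6, reached by 41.4% and 56.4%. The median was 7 CG over all windows and 16 over the 46 windows of the 32 measured imprinted genes with an entry. The letters TGCCGC, the hexamer that ZFP57 binds when its CG is methylated, were searched on both strands (GCGGCA on the other) and are in none of these 4 windows. They occur in 11.6% of all windows and in 9 of those 46 windows (19.6%), namely those of Commd1, Copg2, Grb10, Igf2, Meg3, Nnat, Osbpl5, Plagl1 and Zim1. A match describes the letters and is no evidence of binding, and the array did not measure methylation.

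Deletion of Dicer was set against the controls to ask whether the imprinted genes differed in level between the groups. How far mature microRNAs were lost was not measured. None of the 39 passed the adjusted threshold in limma, where 1 of 20193 genes did (0.00495%, Dicer1), and none passed with the experiment as a block, where 0% of genes did. At an unadjusted p under 0.05 the fit without the block held 1 imprinted gene, Phlda2, beside 6% of all genes. The fit with the block held 6 of the 39 (15.4%), beside 17.1% of all genes. These were Ndn, Peg10 and Asb4 on the higher side (8.04% of genes) and Phlda2, Ascl2 and H19 on the lower side (9.05%). Without the block, 2.22% of all genes were on the higher side and 3.77% on the lower side.

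By direction, 10 of the 39 were higher in the deleted sample of all 3 experiments (25.6%, beside 15.2% of all genes) and 11 were lower in all 3 (28.2%, beside 28.3%). The other 18 went both ways. Differences ran from -0.60 (Phlda2) to 0.70 (Ndn) with a median of -0.01, beside -0.04 over all genes. The median turned to 0.03 when the arrays were quantile normalized again and to 0.00 when they were centred on their medians, so it has no settled sign. Within experiments 18, 19 and 20 it was 0.00, -0.04 and 0.06. A mean difference of at least 1.5-fold with one direction in all 3 experiments was met by Ndn and Asb4 on the higher side (0.896% of genes) and by Phlda2 on the lower side (0.099%).

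**Figure D1:**
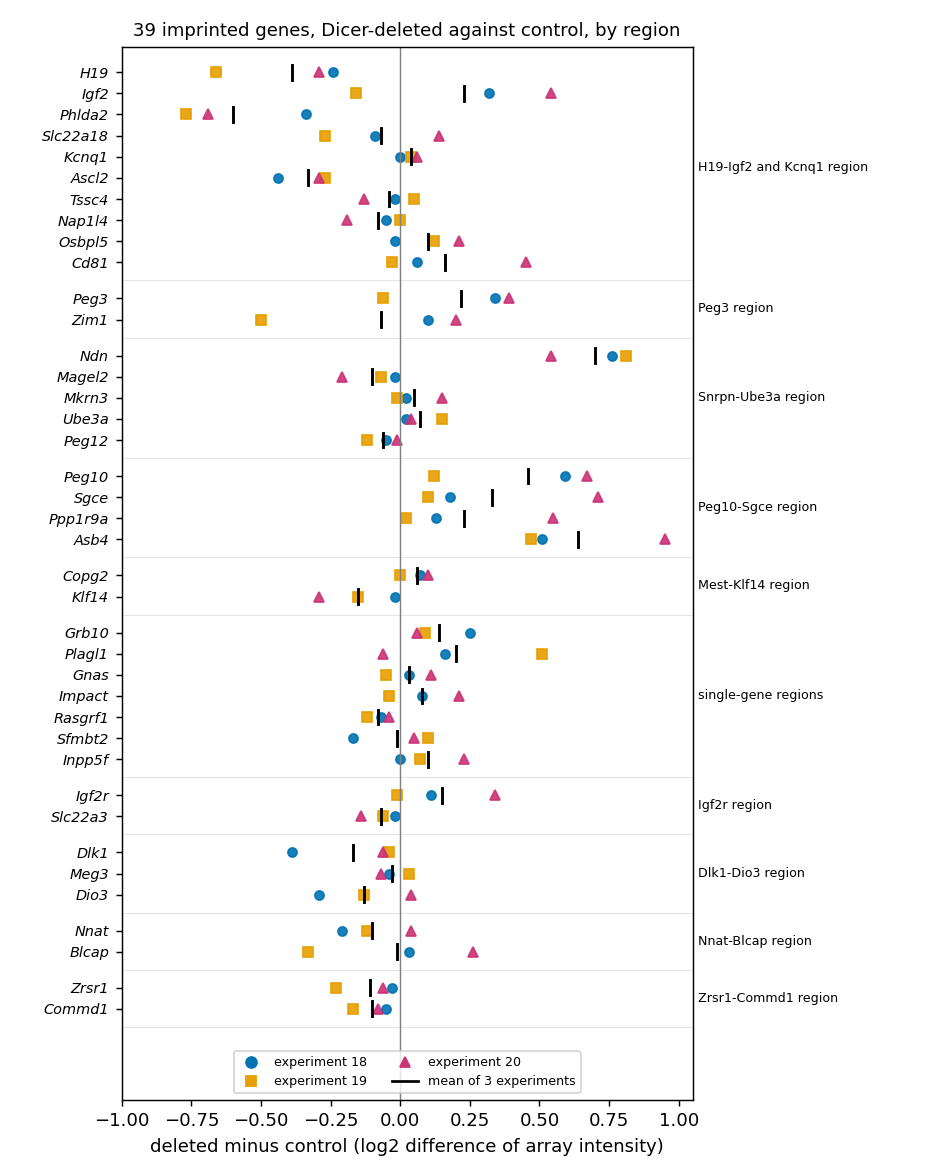
Log2 difference of deleted minus control for each of the 39 measured imprinted genes (rows, by region), with 1 symbol for each of experiments 18, 19 and 20 and a bar at their mean. All 4 genes of the Peg10-Sgce region lie right of 0, Ndn lies at 0.54 to 0.81, and Phlda2 lies at -0.77 to -0.34.

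Level and direction went together over the whole array, so the imprinted genes were also read by level. Of the 25 imprinted genes that reached the median level, 9 were higher in all 3 experiments and 4 lower (36% and 16%, beside 23.3% and 21.6% of all genes as bright), with a median difference of 0.10 beside 0.00. Of the 14 below the median level, 1 was higher and 7 lower (7.14% and 50%, beside 7.1% and 34.9%), with a median of -0.07 beside -0.05. By parental copy, 3 of 16 paternal genes were higher in all 3 experiments and 5 lower, with a median of 0.02, and 6 of 20 maternal genes were higher and 6 lower, with a median of -0.03. The difference between paternal and maternal genes was not tested. In bulk samples, fewer cells that express a gene and less RNA in each cell cannot be told apart.

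The H19-Igf2 and Kcnq1 clusters lie side by side on chromosome 7 and held 10 measured genes, 1 higher and 3 lower in all 3 experiments. Phlda2, a maternal gene whose protein limits placental growth, stood lowest of all 39. It was at 6118, 6954 and 6326 in the controls of experiments 18, 19 and 20 and at 4840, 4076 and 3924 in the deleted samples. The 2 groups did not overlap, and the weakest difference was in experiment 18. The mean difference was -0.60 ± 0.10 (adjusted p = 0.824, and 0.15 with the block), which left 66% of the control intensity, and it ran from -0.69 to -0.54 when single arrays were left out. Groups without overlap were found for 5 of the 39. Phlda2, Klf14, Dlk1 and Rasgrf1 lay below their controls (9.93% of all genes) and Kcnq1 above (3.26%), together beside 13.2% of all genes.

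Ascl2 encodes a basic helix-loop-helix factor needed by the trophoblast and is also maternal. Its intensity was 270.8, 236.8 and 364.6 in controls and 199.9, 196.7 and 297.3 in deleted samples. Each deleted sample was below its own control, but the groups overlapped because both arrays of experiment 20 were high. The difference was -0.33 ± 0.23 (adjusted p = 0.894, and 0.16 with the block). Of the 6 other trophectoderm markers, 3 were lower in all 3 experiments (50%, beside 28.3% of all genes) and 0 higher. Of all genes below the median level, 34.9% were lower in all 3. The 3 markers were Gata3, Tfap2c and Hand1, and Gata3 differed by -0.05, -0.01 and -1.30 in experiments 18, 19 and 20. Cdx2, Elf5 and Plac1 went both ways, with means of 0.08, -0.03 and -0.10. The summed intensity of the 6 was 925.7, 983.2 and 1286 in controls and 868, 906.7 and 1022 in deleted samples. All 6 had mean levels below the median over all genes, and their part in the Ascl2 and Phlda2 differences was not tested.

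H19, a maternal non-coding RNA that restrains growth, shares its control region with Igf2, the paternal fetal growth factor. H19 was at 296.2, 292.7 and 203.5 in controls and 251.6, 185.5 and 166.5 in deleted samples. It was lower in each experiment by -0.24, -0.66 and -0.29 (mean -0.39 ± 0.22, adjusted p = 0.85, and 0.205 with the block). Igf2 was at 2965, 3315 and 1740 in controls and 3699, 2961 and 2535 in deleted samples. It was higher in experiments 18 and 20 and lower in experiment 19 (mean 0.23 ± 0.28, adjusted p = 0.954, and 0.447 with the block). The pair thus differed in opposite directions in experiments 18 and 20, and both were lower in experiment 19.

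The other genes of these clusters differed less. Nap1l4, a nucleosome assembly protein, was at 3740, 3991 and 5110 in controls and 3606, 4002 and 4490 in deleted samples (-0.08 ± 0.15). Cd81, a tetraspanin of the cell surface, was at 10647, 10219 and 8885 in controls and 11091, 10028 and 12143 in deleted samples (0.16 ± 0.11). Its higher mean came mostly from experiment 20, at 0.45. Kcnq1, a potassium channel gene, was higher in all 3 experiments by at most 0.06. Slc22a18, a transporter, Tssc4 and Osbpl5, an oxysterol-binding protein, went both ways, with mean differences of -0.07, -0.04 and 0.10.

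The Peg10-Sgce region of chromosome 6 was the only region with more than 2 measured members in which all members were higher in all 3 experiments, 4 of 4, with a median of 0.39. Peg10, a paternal gene derived from a retrotransposon and needed for the placenta, was at 3357, 3912 and 7008 in controls and 5050, 4265 and 11149 in deleted samples. The difference was 0.59, 0.12 and 0.67 in experiments 18, 19 and 20 (mean 0.46 ± 0.45, 1.38-fold, adjusted p = 0.936, and 0.208 with the block). The groups overlapped, because the control of experiment 20 was above both deleted samples of the other experiments. Sgce, which encodes epsilon-sarcoglycan and starts beside Peg10, was at 3547, 2916 and 2357 in controls and 4018, 3121 and 3849 in deleted samples (0.33 ± 0.18, adjusted p = 0.85, and 0.301 with the block). Most of its difference came from experiment 20, at 0.71.

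Asb4 and Ppp1r9a lie further along the same region and are maternal in some tissues. Asb4, an ankyrin repeat and SOCS box protein, was at 143.2, 439 and 482.2 in controls and 204.6, 608.4 and 928.4 in deleted samples. It was higher in every experiment, by 0.51, 0.47 and 0.95 (mean 0.64 ± 0.72, 1.56-fold, adjusted p = 0.951, and 0.15 with the block), although the deleted sample of experiment 18 stayed below the controls of the other experiments. Ppp1r9a, which encodes the actin-binding protein neurabin, was at 453.6, 591.9 and 325.5 in controls and 496.9, 598.3 and 477.1 in deleted samples (0.23 ± 0.23, adjusted p = 0.939). In experiment 19 it differed by 0.02. When single arrays were left out the mean lay between 0.08 and 1.27 for Asb4 and between 0.04 and 0.78 for Peg10.

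**Figure D2:**
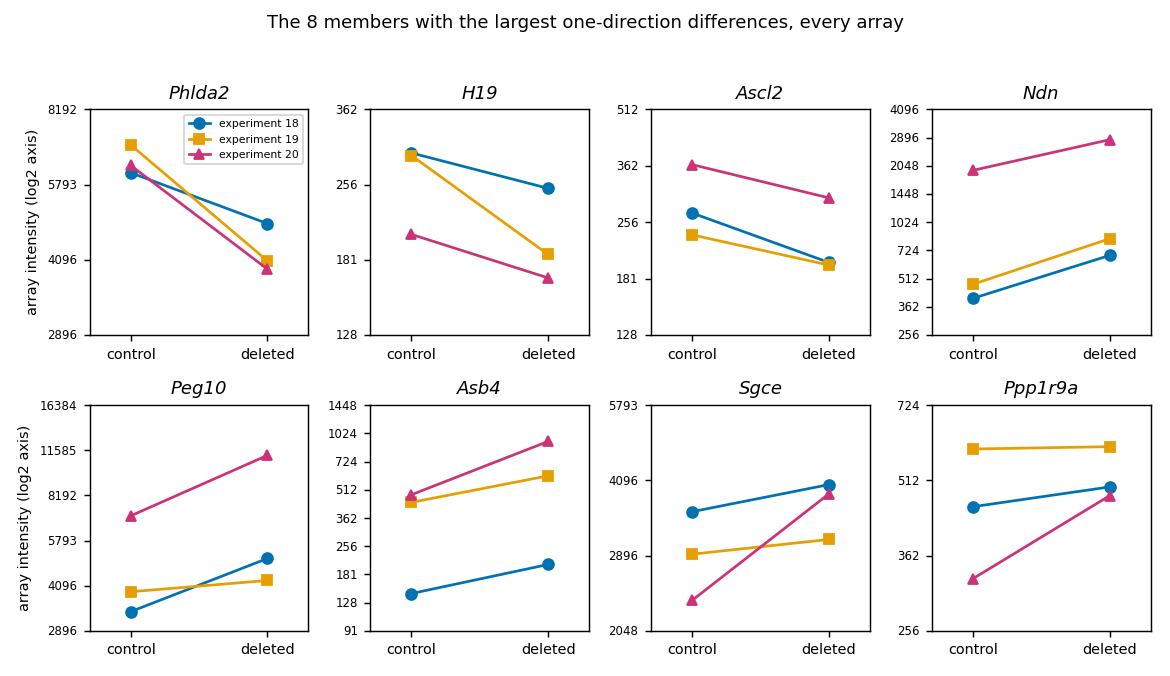
Intensity on a log2 axis in the control and the deleted sample, joined by a line within each experiment, for the 8 imprinted genes with the largest mean differences of one direction. All 3 lines slope down for Phlda2, H19 and Ascl2 and up for the other 5, while experiment 20 lies above the other experiments in both samples for Ndn, Peg10, Asb4 and Ascl2.

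The genes around Peg10 and Sgce were then listed in chromosomal order, a window chosen after the members' values were seen. Of 22 measured genes from Calcr to Dlx5, 7 were higher in all 3 experiments, 6 lower and 9 mixed. The 7 were the 4 members with Casd1, Pon1 and Pon2, all between Col1a2 and Pdk4. Casd1, a sialic acid O-acetyltransferase gene listed among the other imprinted genes, was at 372.6, 418.8 and 396.7 in controls and 512.1, 523.2 and 560.2 in deleted samples. Its groups did not overlap (0.43 ± 0.07, adjusted p = 0.824, and 0.15 with the block). Pon2, a paraoxonase gene, differed by 0.38, 0.46 and 1.03 (mean 0.62 ± 0.42, adjusted p = 0.888). Over all genes 15.2% were higher in all 3 experiments and 28.3% lower. Of 26 genes from H19 to Dhcr7, 8 were lower in all 3 experiments and 1 higher, and of 7 genes from Ube3a to Peg12, 2 were higher and 2 lower.

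**Figure D3:**
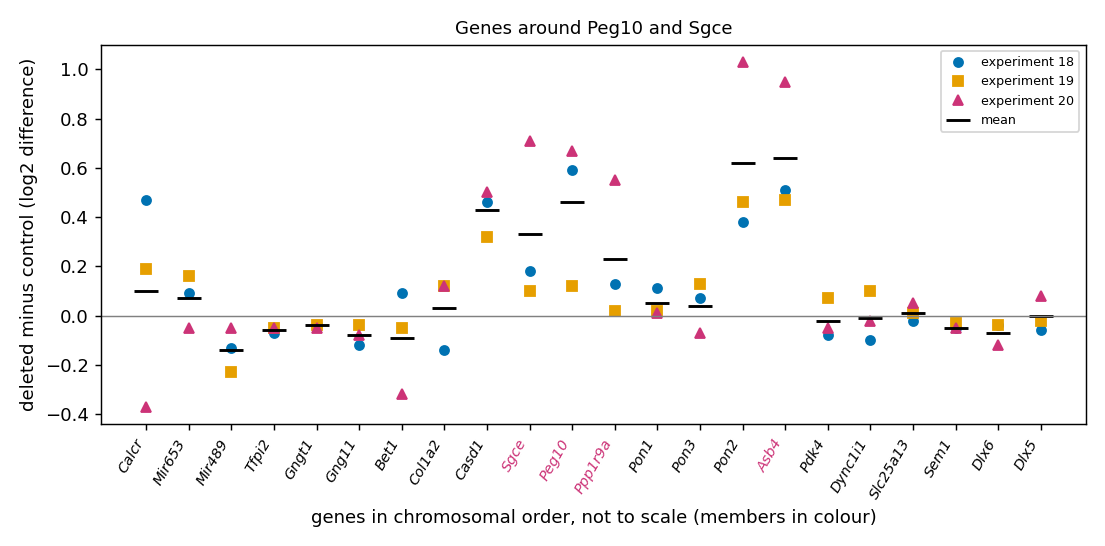
Log2 difference of deleted minus control for the 22 measured genes from Calcr to Dlx5, in chromosomal order and not to scale, with 1 symbol for each experiment, a bar at the mean and the imprinted members' names in colour. The genes from Casd1 to Asb4 hold all 7 that were higher in all 3 experiments, with means of 0.05 to 0.64, and Pon3 among them went both ways.

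The Snrpn-Ube3a region of chromosome 7 held 5 measured genes, 2 higher and 2 lower in all 3 experiments. Ndn, the paternal gene for the MAGE-family protein necdin, had the largest positive difference of the 39. Its intensity was 401.4, 477.1 and 1935 in controls and 680.4, 835.2 and 2820 in deleted samples. The within-experiment differences were close to each other, at 0.76, 0.81 and 0.54, yet the groups overlapped because the control of experiment 20 was above the deleted samples of experiments 18 and 19. The mean was 0.70 ± 0.81 (1.63-fold, adjusted p = 0.951), and with the block the SE was 0.08 (adjusted p = 0.138). Ndn is strongly expressed in neurons. Of the 6 neural markers, 3 were higher in all 3 experiments (Nes, Fabp7 and Ncam1, 50% beside 15.2% of all genes) and 0 lower. The median level was reached by 4 of the 6, and 23.3% of all genes as bright were higher in all 3 experiments. Sox1, Pax6 and Zic1 went both ways, with means of 0.01, 0.06 and -0.03. The summed neural intensity was 3858, 5763 and 5096 in controls and 4826, 6241 and 7110 in deleted samples, and its part in the Ndn difference was not tested. Of the 9 mesendoderm markers, 4 were higher in all 3 experiments (T, Sox17, Foxa2 and Cer1, 44.4% beside 15.2% of all genes). All 9 reached the median level, where the share of all genes was 23.3%. Gata4 was lower in all 3 (mean -0.36). T, the brachyury gene, differed by 1.54, 2.15 and 0.75 (mean 1.48 ± 1.59, adjusted p = 0.945). Mixl1, Eomes, Gsc and Gata6 went both ways, with means of -0.44, -0.30, -0.23 and -0.36. The median difference of the 9 was -0.23. The summed mesendoderm intensity ranged from 3520 to 33010 over controls and from 4599 to 31000 over deleted samples. Their part in the differences of Ndn, Asb4 and Peg10 was not tested.

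The other 4 genes of the region had mean differences between -0.10 and 0.07. Magel2, the MAGE-family gene next to it, was at 240.3, 244.1 and 328.7 in controls and 237.4, 232.5 and 283.8 in deleted samples (-0.10 ± 0.15). Mkrn3, a makorin ring-finger gene, was at 83.31, 80.81 and 104.7 in controls and 84.67, 80.33 and 115.9 in deleted samples (0.05 ± 0.18). Ube3a, the ubiquitin ligase that is maternal in neurons, was at 1783, 1535 and 1530 in controls and 1802, 1701 and 1571 in deleted samples (0.07 ± 0.09). Its groups overlapped although it was higher within each experiment. Peg12, related to the GSK3-binding FRAT proteins, was at 264.8, 285.1 and 343.1 in controls and 255.5, 262 and 340.1 in deleted samples (-0.06 ± 0.15).

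Growth regulators in regions of their own showed small differences. Grb10, an adaptor that restrains insulin and IGF receptor signalling, was at 5318, 6453 and 7836 in controls and 6331, 6892 and 8188 in deleted samples (0.14 ± 0.17). It was higher in all 3 experiments, while experiments differed among themselves by more than that. Plagl1, a zinc-finger factor also called Zac1, was at 362.8, 406.1 and 776.4 in controls and 405.3, 578.6 and 743.9 in deleted samples (0.20 ± 0.36). Igf2r, the receptor that clears IGF2, was at 2135, 2305 and 1740 in controls and 2298, 2291 and 2204 in deleted samples (0.15 ± 0.11). Both went both ways, Plagl1 being lower in experiment 20 and Igf2r in experiment 19.

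Of the remaining single-gene regions, Gnas, the alpha subunit of the stimulatory G protein, differed by 0.03 ± 0.06. Impact, an inhibitor of the kinase GCN2, differed by 0.08 ± 0.12, and Inpp5f, a phosphoinositide phosphatase, by 0.10 ± 0.11. Rasgrf1, a Ras exchange factor, was lower in all 3 experiments without overlap, with controls at 103.8 to 108 and deleted samples at 99.01 to 100.8, a difference of -0.08 ± 0.05. Sfmbt2, a Polycomb-associated gene, was at 223.3, 190 and 389.4 in controls and 198.2, 203.8 and 402.7 in deleted samples. Its difference of -0.01 ± 0.39 had no settled sign and was 0.02 after a second quantile normalization.

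In the Dlk1-Dio3 region of chromosome 12, Dlk1, a paternal gene for a Delta-like membrane protein, was at 392.9, 319.9 and 324.4 in controls and 298.9, 310.5 and 311.6 in deleted samples. The groups did not overlap, and most of the difference of -0.17 ± 0.10 came from the control of experiment 18, the highest of the 6 arrays. Meg3, the maternal non-coding RNA of the region, had controls at 122.4 to 125.9 and deleted samples at 116.8 to 125.3 (-0.03 ± 0.06). Dio3, the thyroid-hormone-inactivating deiodinase, had controls at 119.7 to 126.4 and deleted samples at 103.5 to 123.5 (-0.13 ± 0.08). Both lay below the median level over all genes, and no detection call was used here to say whether such levels are above background.

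The Peg3 and Mest-Klf14 regions each held 2 measured genes. Peg3, a paternal zinc-finger gene, was at 4784, 5467 and 4446 in controls and 6058, 5239 and 5817 in deleted samples (0.22 ± 0.10, adjusted p = 0.833), higher in experiments 18 and 20 and lower in 19. Its neighbour Zim1 went both ways (-0.07 ± 0.30). Copg2, a coatomer subunit gene, was at 3579, 3315 and 2774 in controls and 3758, 3326 and 2981 in deleted samples (0.06 ± 0.13). Klf14, a Krüppel-like factor gene, had controls at 580.1 to 651.7 and deleted samples at 533.3 to 574.1 (-0.15 ± 0.07), lower in each experiment and without overlap.

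Zrsr1, a splicing-factor gene inside an intron of Commd1, was at 707.3, 597.4 and 350 in controls and 692.4, 508 and 336.5 in deleted samples (-0.11 ± 0.36). Commd1, an NF-κB and copper regulator, was lower by a like amount (-0.10 ± 0.12), and both were lower in all 3 experiments. Blcap was at 843.1, 821.1 and 619.1 in controls and 862.1, 652 and 742.9 in deleted samples (-0.01 ± 0.16). It was lower in experiment 19 alone, by -0.33. Nnat, the neuronatin gene inside an intron of Blcap, differed by -0.10 ± 0.16, and Slc22a3, an organic cation transporter beside Igf2r, by -0.07 ± 0.06.

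The imprinted genes were also compared between experiments. Earlier results of these data showed experiment 20 apart, so the contrast was chosen from the same data. Experiment 20 was set against the mean of experiments 18 and 19 with group as a second term, and SEs of these differences are from that fit. The control and deleted samples of an experiment came from the same cells. The SEs and p-values between experiments therefore rest on arrays within experiments and do not measure the spread between cultures. In limma, 15 of 39 imprinted genes passed the adjusted threshold (38.5%, beside 24.6% of all genes), 11 higher in experiment 20 (12.4% of genes) and 4 lower (12.2%). Over all genes that reached the median level the share was also 38.5%, and 9 of 25 imprinted genes of that level passed (36%). Of the 14 below the median level, 6 passed (42.9%, beside 10.6% of all genes of that level). An F test over the 3 experiments that singles out none of them, chosen after seeing the data, called 12 of 39 (21.4% of genes), 11 of them shared with the 15. Without control 18 or without deleted 18 the contrast held 6 imprinted genes (8.7% and 8.74% of genes), without control 19 it held 8 (12.8%) and without control 20 it held 9 (22%). Without deleted 19 it held 11 (17.2%) and without deleted 20 it held 22 (30.6%).

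Ndn had the largest difference between experiments, 2.02 ± 0.08 on the log2 scale or 4.07-fold in experiment 20 over the other experiments (adjusted p = 0.00175). Its controls of 401.4 and 477.1 stood against 1935, and its deleted samples of 680.4 and 835.2 against 2820. Asb4 followed at 1.17 ± 0.12 (2.25-fold, adjusted p = 0.00474) and Peg10 at 1.11 ± 0.13 (2.16-fold, adjusted p = 0.00613). These 3 are also the genes with the largest positive differences with deletion, and both differences come from the same 6 arrays. For Asb4 the reference held a low experiment 18, at 143.2 in the control and 204.6 in the deleted sample. Experiment 19 was above experiment 18 by 1.59 ± 0.14 (adjusted p = 0.0606). Experiments 19 and 20 were closer to each other, at 439 and 482.2 in controls and at 608.4 and 928.4 in deleted samples.

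Sfmbt2 rose by 0.96 ± 0.08 in experiment 20 (adjusted p = 0.00343), and its deleted and control samples differed by at most 0.17 in size within an experiment. Plagl1 rose by 0.82 ± 0.13 (adjusted p = 0.0125), while within experiment 19 its deleted sample was above the control by 0.51. Ascl2 rose by 0.56 ± 0.07 (adjusted p = 0.00734), against its lower level with deletion. Mkrn3, Magel2 and Peg12 rose with Ndn, by 0.42, 0.36 and 0.36. Thus 4 of 5 measured members of the Snrpn-Ube3a region passed the threshold (80%, beside 24.6% of all genes), all of them paternal. Under 10 other settings, Mkrn3 lost its call in 2, Magel2 in 5 and Peg12 in 4. Gm26504, which lies in the window from Ube3a to Peg12 and is not a member, differed by -1.03 (adjusted p = 0.00838). Mkrn3 was low, at 80.33 to 115.9 over the arrays. Ube3a, which is maternal in neurons, did not pass (-0.13 ± 0.06, adjusted p = 0.212). Which copy of Ube3a was read in these cells was not measured, so these values hold no contrast of paternal with maternal genes. Grb10 rose by 0.36 and Nap1l4 by 0.32.

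Zrsr1, Igf2, H19 and Copg2 were the 4 members past the threshold that fell. Zrsr1 fell by 0.86 ± 0.07 (adjusted p = 0.00346), and experiment 20 had 0.553 times the intensity of the others. Igf2 fell by 0.62 ± 0.15 (adjusted p = 0.0413) and H19 by 0.45 ± 0.11 (adjusted p = 0.0365), so both members of the reciprocal pair were lower in experiment 20. Copg2 fell by 0.28. Asb4, Ndn, Peg10, Sfmbt2 and Zrsr1 kept their calls under each of the 10 or 11 other settings tried, while H19, Igf2, Copg2, Grb10, Magel2 and Nap1l4 each lost theirs under 5.

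**Figure D4:**
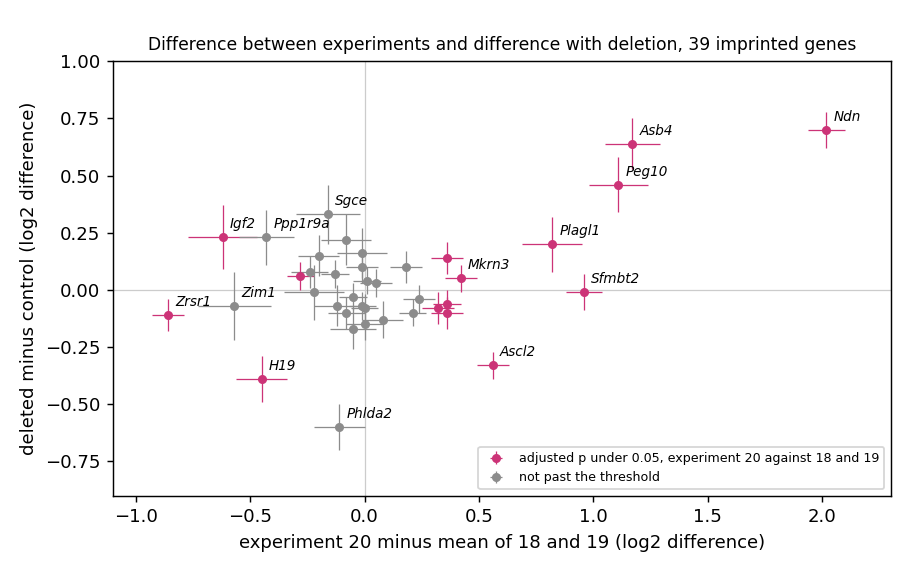
Log2 difference of experiment 20 against the mean of experiments 18 and 19 (x axis) and of deleted against control (y axis) for the 39 imprinted genes, with bars of 1 SE from the fit that holds both terms and colour for an adjusted p under 0.05 on the x axis. Ndn lies farthest right at 2.02, Phlda2 lies lowest at -0.60 with -0.11 between experiments, and the x axis spans more than the y axis.

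In size, the difference of experiment 20 was larger than that of deletion in 27 of 39 imprinted genes (69.2%, beside 63.9% of all genes). The median size over the 39 was 0.22 between experiments and 0.10 with deletion, beside 0.14 and 0.09 over all genes. Experiments 19 and 18 differed at an adjusted p in 0 of 39 (0% of all genes), and at an unadjusted p in 6 (18.3% of all genes). The 9 mesendoderm markers are genes of cells leaving pluripotency for mesoderm and endoderm. In experiment 20, 8 of 9 passed the threshold as higher (88.9%, beside 12.4% of all genes). All 9 reached the median level, where 38.5% of all genes passed in either direction. The summed intensity of the 9 was 3520, 6386 and 33010 in controls and 4599, 9050 and 31000 in deleted samples of experiments 18, 19 and 20. Of the 10 EpiSC markers 2 passed (20%, beside 24.6% of all genes), Sox2 as higher and Fgf4 as lower in experiment 20. Of the 6 neural markers 2 passed (33.3%, beside 24.6% of all genes). Fabp7 rose by 3.21 ± 0.08 (9.28-fold, adjusted p = 0.00122) and Nes fell by 0.61 ± 0.09 (adjusted p = 0.0098). The part of such cells in the differences of the imprinted genes was not tested.

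Other genes of imprinted regions and the genes that keep imprints were read from lists of their own. Of 32 other imprinted genes 27 were measured, and 0 passed the adjusted threshold in limma, with 2 at an unadjusted p under 0.05 (6% of all genes) and 5 with the block (18.5%, beside 17.1% of all genes). In all 3 experiments 6 were higher (22.2%, beside 15.2%) and 5 lower (18.5%, beside 28.3%), with a median of 0.00 beside -0.04. The 3 smallest p-values were those of Casd1 (above), Atp10a, a phospholipid-transporting ATPase gene (0.42 ± 0.13), and Phactr2, a phosphatase and actin regulator gene (0.36 ± 0.15), with adjusted p of 0.824, 0.824 and 0.831. Of 18 genes that set or keep imprints, 0 passed, and 1 had an unadjusted p under 0.05 (6% of all genes did), or 2 with the block (11.1%, beside 17.1%). In all 3 experiments 3 were higher (16.7%, beside 15.2%) and 4 lower (22.2%, beside 28.3%), with a median of -0.01. Arid4b, a chromatin regulator, had controls at 1280 to 1404 and deleted samples at 1548 to 1802 (0.28 ± 0.09, adjusted p = 0.824). Dppa3, which protects imprints in the zygote, differed by -0.17 ± 0.09 and Eed, a Polycomb subunit, by -0.12 ± 0.06.

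Imprinted regions also hold many microRNA genes, most of them in the maternal transcripts of the Dlk1-Dio3 region, and the precursors of 35 of 48 were measured. In all 3 experiments 1 was higher (2.86%) and 17 lower (48.6%), with a median of -0.05. In limma 0 passed the adjusted threshold, with 3 at an unadjusted p under 0.05 (6% of all genes did) and 5 with the block (14.3%, beside 17.1%). Most were low: 3 of 35 reached the median level over all genes. Of all genes below that level, 7.1% were higher and 34.9% lower in all 3 experiments. The 3 smallest p-values belonged to Mir540, Mir337 and Mir673 of the Dlk1-Dio3 region. Mir540 had controls at 296.3 to 328.9 and deleted samples at 253 to 267.6 (-0.27 ± 0.07). Mir337 was at 194.3 to 212.4 and 171 to 175.3 (-0.22 ± 0.06), and Mir673 at 415.5 to 433.7 and 361.4 to 373.6 (-0.19 ± 0.06). In each of the 3 the groups did not overlap, and the adjusted p was 0.824. Deleted samples lay below controls without overlap for 8 of the 35 precursors and above for 0, beside 9.93% and 3.26% of all genes. Of the 10096 genes below the median level, 1491 lay below without overlap. The probe sets of these precursors also read the host transcript and do not tell a precursor from a mature microRNA.

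The mature products of these 3 precursors are shown with bases 2 to 8, the seed that pairs with a target, in capitals, to show that no seed is shared among the 6. They lie on chromosome 12 of GRCm38.p6, plus strand, and come from RefSeq.
miR-673-5p: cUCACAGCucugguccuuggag
miR-673-3p: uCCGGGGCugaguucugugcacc
miR-337-5p: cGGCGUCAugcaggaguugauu
miR-337-3p: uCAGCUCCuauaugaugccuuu
miR-540-5p: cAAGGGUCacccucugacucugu
miR-540-3p: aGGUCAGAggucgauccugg
Target sites of these microRNAs were not analysed here.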

How the data were processed

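RNA of 6 EpiSC samples was read on Affymetrix MoGene 1.0 ST arrays. RMA and Affymetrix Expression Console 1.2 are what the submitters' processing notes name, and the annotation is mm9 per the file headers. The authors deposited linear intensity values and log2 values centred on each probe set's median; log2 levels restored from both agree within 2.31e-06. RMA had already normalized the arrays, so a general shift in RNA content cannot be seen. Of 28856 probe sets, 22439 named 1 gene, 2815 several and 3602 none. The 2815, the 3602 and 9 with several identifiers were left out, and the brightest probe set stood for each of 1305 genes that had more than 1, which concerned 1 of the 39 (Gnas). Names were updated through RefSeq identifiers, with 19486 of 20193 genes matched.

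The tests used limma 3.58.1 with R 4.3.3 (two-sided, Benjamini-Hochberg over all genes). The labels describe each experiment as 1 control and 1 deleted sample kept side by side, which pairs them, and deviations from the group means correlated across genes with r = 0.83, 0.61 and 0.80 in experiments 18, 19 and 20, above 0.29 for any arrays of different experiments. The labels call the experiments biological replicates.

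The members and lists were chosen with earlier results of these data known. All 6 arrays are given for 24 members: those past a threshold, with the largest differences, or brightest in their region. Alternatives were the block, trend and robust settings, other normalizations, a level filter, the mean of all probe sets, the deposited series table and leaving out arrays or experiments. Figures used matplotlib 3.10.9 in Python 3.11.15.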

Additional observations from a re-analysis of the deposited data

How the results depend on the processing

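The count of 0 members past the adjusted threshold for deletion became 2 (Ndn at 0.78 and Asb4 at 0.49) with the replicate block and without replicate 20, a fit with 1 residual degree of freedom that called 388 of 20193 genes; it was 0 with the replicate block on all arrays and under the other settings, a range of 0 to 2. The 10 members higher in all experiments were 11 to 19 when an experiment was left out, the 19 without experiment 19, where 24.4% of all genes were higher in both others. The 11 lower were 11 to 14 when an experiment was left out and 4 among the 25 at or above the median level. The median of -0.01 was 0.10 at such levels and -0.01 to 0.05 without single arrays or experiments. The 15 members that differed in experiment 20 were 6 to 22 without single arrays (6 without control 18 or deleted 18, 8 without control 19, 9 without control 20) and 12 without the group term. Sfmbt2 turned from -0.01 to 0.02 when quantile normalized again. When arrays or experiments were left out, the sign also turned for Blcap (-0.15 to 0.15), Copg2 (-0.04 to 0.14), Grb10 (0.00 to 0.28), Igf2 (-0.05 to 0.43), Magel2 (-0.19 to 0.05), Mkrn3 (-0.11 to 0.17), Nap1l4 (-0.17 to 0.06), Peg12 (-0.19 to 0.04), Plagl1 (-0.01 to 0.54), Sfmbt2 (-0.34 to 0.30 without an array, -0.06 to 0.08 without an experiment, with or without the replicate block) and Zrsr1 (-0.40 to 0.17); the cause was not tested. The deposited series table holds the same values (largest gap 0), so that comparison is void. A missed threshold with 3 arrays a group does not show that a gene stayed level.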
